A study of Homo sapiens with 4 samples.

Results

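Ribosome biogenesis and RNA polymerase I were represented by 42 genes, chosen by symbol as known nucleolar factors of these processes and taken from the 20515 rows of a table of raw RNA-seq counts per Ensembl gene. All 42 were in the table and all 42 passed the filter on low counts that left 18369 genes for testing. These genes, and the lists set beside them below, were chosen with earlier results of these data known. The RNA was from T47D, a human breast cancer cell line of luminal type, with 2 libraries of cells treated with baicalein, a plant flavonoid, and 2 libraries of untreated control cells. No genotype or other agent is named for either group, with dose, duration and vehicle not given in the sources used here. Separate cultures are not named for the replicates, and p-values therefore reflect the spread among these 4 samples alone, which could be technical. In bulk RNA, fewer cells of a type and less RNA per cell cannot be told apart.

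Ribosomes are built in the nucleolus. RNA polymerase I copies the ribosomal DNA into a long precursor, small nucleolar ribonucleoproteins (snoRNPs) guide its methylation and pseudouridylation, and the small subunit processome and the large subunit assembly factors fold, cut and export the precursors with the ribosomal proteins. The process consumes much of a growing cell's energy and is often high in proliferating tumour cells, where the transcription factor MYC drives many of its genes. The counts describe the mRNAs of these factors in poly(A) RNA, not ribosomal RNA synthesis.

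A sequence feature often linked to this gene family is the E-box CACGTG, the site read by MYC and MAX. The promoters that carry it ahead of an annotated start are therefore shown first. RefSeq promoter entries of GRCh38.p14, which hold 250 bases before to 50 after each start, matched 35 of the 42 genes. POLR1E, TCOF1, NOP58, NOLC1, RRP12, BOP1 and RRP1B had no entry. In 13 of the 35 genes at least 1 entry held CACGTG, which reads the same on both strands. In 7 of them it began ahead of the start of that entry. These 7 are given below on the strand of the gene, with the E-box in capitals.
DDX21 (chr10:68956467-68956646, plus strand): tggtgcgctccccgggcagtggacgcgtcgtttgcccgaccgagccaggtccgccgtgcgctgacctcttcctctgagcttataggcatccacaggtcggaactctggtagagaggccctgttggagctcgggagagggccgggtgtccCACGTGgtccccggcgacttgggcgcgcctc
RRP9 (chr3:51941904-51942084, minus strand): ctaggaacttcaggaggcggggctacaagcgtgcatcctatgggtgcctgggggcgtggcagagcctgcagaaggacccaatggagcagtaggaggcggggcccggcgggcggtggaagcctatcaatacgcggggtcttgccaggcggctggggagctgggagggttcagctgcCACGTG
UTP14A (chrX:129905914-129906093, plus strand): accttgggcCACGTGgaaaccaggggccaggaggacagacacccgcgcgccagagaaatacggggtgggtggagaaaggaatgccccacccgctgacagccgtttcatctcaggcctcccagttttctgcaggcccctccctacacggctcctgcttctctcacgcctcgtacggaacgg
UTP20 (chr12:101279925-101280104, plus strand): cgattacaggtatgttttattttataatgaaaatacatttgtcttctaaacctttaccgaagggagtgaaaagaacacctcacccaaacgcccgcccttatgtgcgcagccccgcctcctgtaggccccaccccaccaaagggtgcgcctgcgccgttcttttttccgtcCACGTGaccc
NOP10 (chr15:34343137-34343316, minus strand): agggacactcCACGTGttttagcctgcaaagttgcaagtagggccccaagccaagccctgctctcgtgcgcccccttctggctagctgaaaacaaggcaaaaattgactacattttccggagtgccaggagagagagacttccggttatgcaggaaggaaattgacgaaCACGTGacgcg
UTP4 (chr16:69132469-69132648, plus strand): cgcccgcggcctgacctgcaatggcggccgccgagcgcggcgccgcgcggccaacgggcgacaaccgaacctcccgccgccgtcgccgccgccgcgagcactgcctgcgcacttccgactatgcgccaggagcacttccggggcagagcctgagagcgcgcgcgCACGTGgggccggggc
UTP18 (chr17:51260366-51260545, plus strand): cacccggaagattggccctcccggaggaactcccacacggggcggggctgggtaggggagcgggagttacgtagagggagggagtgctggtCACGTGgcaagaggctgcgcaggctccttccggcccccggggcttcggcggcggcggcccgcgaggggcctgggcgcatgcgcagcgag
The stretches end at the base before the start of the entry, with 2 exceptions. The E-box of RRP9 takes in the first base after that start, and the stretch of UTP14A ends at base -71. The E-boxes of DDX21, UTP20, NOP10 and UTP4 lay within 31 bases of the start, at -31, -10, -11 and -16, and NOP10 held another at -170. In UTP18 the E-box shown began at -89. In the other 6 genes with the motif (GNL3, NOP14, GAR1, NOP2, FBL and PES1) it lay after the start. The E-box was held by 37.1% of the genes with an entry, against 12.2% of the 12177 tested genes with one and 8.77% of all 27305 genes in the promoter table. The median GC content of the promoter entries was 64.0% for the members and 64.7% for the tested genes. Members with and without the E-box had equal median changes. The median log2 fold change was 0.22 over the 13 genes with the motif, of which 10 rose and 2 fell, and 0.22 over the 22 without, of which 13 rose and 3 fell. GCGTG, the core of the site of the aryl hydrocarbon receptor, was searched on both strands and stood in the entries of 27 of 35 members (77.1%), against 57.0% of the tested genes. The 27 members with it had a median log2 fold change of 0.22 and the 8 without it 0.25. No E-box of a member overlapped a GCGTG match. The stretch shown for DDX21 belongs to a start downstream of the first annotated one. A match is a run of letters, not a bound site.

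After trimmed-mean scaling to library size, mRNA levels of most of the 42 genes were higher in baicalein-treated cells. The snoRNP scaffold gene NOP56, the methyltransferase gene FBL and the RNA polymerase I factor genes UBTF and TCOF1 went down. Of the 42 genes, 26 rose (61.9%), 8 fell and 8 did not pass at an adjusted p of 0.05 in edgeR's quasi-likelihood test, against 37.4% of all tested genes higher and 37.6% lower. With library totals in place of trimmed-mean scaling the split was 21 higher and 11 lower, beside 5928 higher and 7735 lower of all 18369 genes under the same scaling. Together, 34 of 42 passed (81%), close to the 75.0% of all tested genes that passed. In all 34 the baicalein and control libraries did not overlap, while 6 of the 8 others did. The share of all tested genes without overlap was not counted, so this separation is not taken as a trait of the 42 genes. Most changes were below 1.5-fold. A change of at least 1.5-fold was found in 7 higher genes and 1 lower gene (8 of the 42 together), against 45.9% of all tested genes (21.8% higher and 24.1% lower). The median size of the log2 fold change, without its sign, was 0.31 for the members and 0.57 for all tested genes, and the medians with sign were 0.20 and 0.00.

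The libraries held 56732569 and 38597207 counts in baicalein 1 and 2, and 45341857 and 45618604 in control 1 and 2. The 42 genes took 0.579% and 0.580% of the counts in baicalein 1 and 2, and 0.511% and 0.516% in control 1 and 2. Replicates lay close together, with a median gap of 0.04 log2 units over the members between the baicalein libraries and 0.05 between the controls, and largest gaps of 0.13 (RRP9) and 0.17 (UTP15). All 8 luminal epithelial markers listed (KRT8, KRT18, KRT19, EPCAM, GATA3, FOXA1, ESR1 and PGR) were tested. Their summed level was 6238 and 6333 CPM (counts scaled to library size with TMM factors) in baicalein 1 and 2, against 12334 and 13612 CPM in control 1 and 2, and 7 of the 8 were lower. Of 14 markers of fibroblasts, immune and endothelial cells, 11 were not tested (of these, COL1A2 and PTPRC had 11 counts each over the 4 libraries), and the summed level of the other 3 was 151 and 141 CPM in baicalein 1 and 2, against 91.5 and 102 CPM in control 1 and 2. Nearly all of that sum was the collagen gene COL1A1, with 145 ± 7.13 CPM in baicalein and 95.2 ± 7.32 CPM in control cells (SD, n = 2 each). The part of these markers in the results was not tested.

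**Figure D1:**
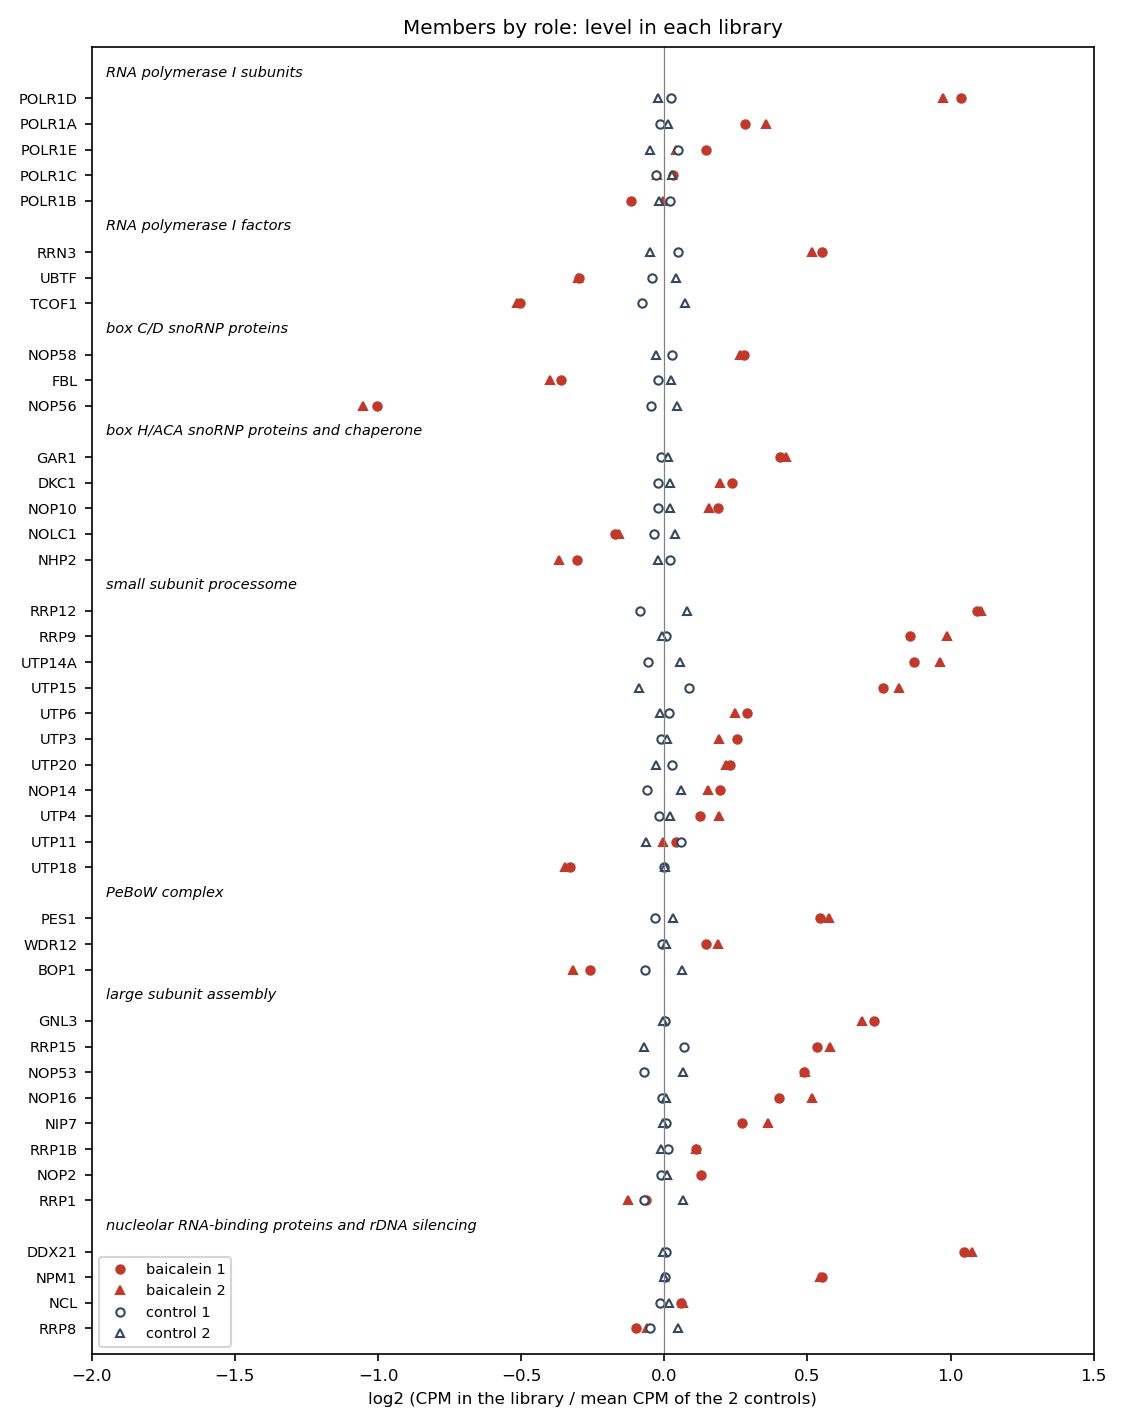
Level of each of the 42 genes in each library, as log2 of its CPM over the mean of the 2 controls, ordered by role; filled red symbols are baicalein libraries and open dark symbols control libraries. DDX21, POLR1D and RRP12 lie near 1 and NOP56 near -1 in both baicalein libraries.

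Of the 5 RNA polymerase I subunits, 2 rose and 3 did not pass. POLR1A, the largest subunit, had 68.6 and 72.2 CPM in baicalein 1 and 2, against 55.8 and 56.9 CPM in control 1 and 2. Both baicalein libraries lay above both controls (log2 fold change 0.32, SE 0.05, adjusted p = 3.42e-06). POLR1B, which completes the active site, had 31.2 and 33.6 CPM in baicalein 1 and 2, against 34.2 and 33.3 CPM in control 1 and 2, and the groups overlapped (95% interval of the log2 fold change -0.18 to 0.06). POLR1B passed as lower with library totals (log2 fold change -0.17, adjusted p = 0.0137), and likewise after the correction for GC content and length (-0.19, adjusted p = 0.000968). POLR1C, an assembly subunit, had 20.8 and 19.9 CPM in baicalein 1 and 2, against 19.9 and 20.7 CPM in control 1 and 2. Its groups overlapped, with a log2 fold change of 0.00 (interval -0.13 to 0.14), and POLR1E, part of the initiation heterodimer, one of 0.10 (interval -0.03 to 0.22), neither of which passed. POLR1E passed as higher without control 1 (adjusted p = 0.0336), and likewise after the correction for GC content and length (adjusted p = 0.0148). Exons of POLR1C overlap those of XPO5, YIPF3 and LRRC73 on the opposite strand, and the use of strand in counting was not stated.

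POLR1D stood apart from the other subunits. It codes for a small subunit that RNA polymerases I and III share with POLR1C as its partner, and it lies on chromosome 13, positions 27620742 to 27744237 of GRCh38. It had 82.9 and 79.5 CPM in baicalein 1 and 2, against 41.1 and 39.8 CPM in control 1 and 2. The baicalein libraries lay far above the controls, at a fold change of 2.01 (log2 fold change 1.01, SE 0.05, adjusted p = 1.92e-14).

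The 3 factors that act with the polymerase at ribosomal DNA moved in both directions. RRN3, which couples growth signals to the polymerase, had 154 and 150 CPM in baicalein 1 and 2, against 109 and 101 CPM in control 1 and 2 (log2 fold change 0.53, SE 0.05, adjusted p = 3.16e-10). UBTF, the HMG-box protein that holds ribosomal DNA open, had 163 and 162 CPM in baicalein 1 and 2, against 194 and 206 CPM in control 1 and 2 (log2 fold change -0.30, adjusted p = 2.86e-06). TCOF1 codes for treacle, a nucleolar scaffold that works with UBTF. Its levels were 114 and 113 CPM in baicalein 1 and 2, against 153 and 169 CPM in control 1 and 2 (log2 fold change -0.51, adjusted p = 2.39e-09). The groups of all 3 genes were fully apart, RRN3 upward and the other 2 downward. RRN3 has 4 named pseudogenes, and the rows RRN3P2 and RRN3P3 held 4.18% of the counts of the gene and these copies together, so its split from them is uncertain.

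The largest fall was in the box C/D snoRNPs, which carry out guided ribose methylation. NOP56, a core scaffold of these particles (chromosome 20, positions 2652145 to 2658393), had 109 and 106 CPM in baicalein 1 and 2, against 212 and 226 CPM in control 1 and 2. Its baicalein levels were near 0.491 of control (log2 fold change -1.03, SE 0.05, adjusted p = 3.91e-15). FBL, the methyltransferase fibrillarin, had 63.7 and 62.0 CPM in baicalein 1 and 2, against 80.5 and 83.2 CPM in control 1 and 2 (log2 fold change -0.38, adjusted p = 1.35e-07). NOP58, the scaffold that pairs with NOP56, went the other way, with 134 and 133 CPM in baicalein 1 and 2, against 113 and 109 CPM in control 1 and 2 (log2 fold change 0.27, adjusted p = 5.42e-06). Both pairs of libraries were apart for each of these genes, NOP58 upward and the others downward.

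Both scaffold genes also carry snoRNAs in their introns. GENCODE release 29 places 22 snoRNA genes inside 7 of the members on the same strand, among them 6 in GNL3, 5 in NOP56, 4 in NOP58, 3 in NCL and 2 in DKC1. The hosts moved in both directions. NOP56 fell, NCL and POLR1C did not pass, and GNL3, NOP58, DKC1 and NOP53 rose. The snoRNAs themselves were not analysed here.

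The box H/ACA snoRNPs, which turn uridine into pseudouridine, moved by at most 0.41 log2 units. DKC1, the pseudouridine synthase dyskerin, had 120 and 117 CPM in baicalein 1 and 2, against 100 and 103 CPM in control 1 and 2 (log2 fold change 0.22). GAR1 averaged 21.5 ± 0.23 CPM in baicalein and 16.1 ± 0.2 CPM in control cells (SD, n = 2 each; log2 fold change 0.41). These 2 genes rose with no overlap of the groups. NOP10, the smallest core protein, had 40.3 and 39.4 CPM in baicalein 1 and 2, against 34.9 and 35.9 CPM in control 1 and 2 (log2 fold change 0.17, adjusted p = 0.00549). NHP2, the remaining core protein, fell, with 61.3 and 58.7 CPM in baicalein 1 and 2, against 77.0 and 74.7 CPM in control 1 and 2 (log2 fold change -0.34, adjusted p = 1.3e-06). NOLC1, the chaperone that shuttles snoRNPs, had 298 and 301 CPM in baicalein 1 and 2, against 327 and 344 CPM in control 1 and 2 (log2 fold change -0.16, adjusted p = 0.00169). The call of NOP10 was lost without baicalein 1 (adjusted p = 0.0941), and that of NOLC1 without baicalein 1 (0.0795) or baicalein 2 (0.0579).

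Of the 11 small subunit processome and export factors, 9 rose, UTP18 fell and UTP11 did not pass. RRP12, which in yeast is needed for maturation and export of the subunits (chromosome 10, positions 97356358 to 97426076), had 149 and 151 CPM in baicalein 1 and 2, against 66.1 and 73.9 CPM in control 1 and 2. This was the highest fold change of the 42 genes, 2.14 (log2 fold change 1.10, SE 0.05, adjusted p = 2.51e-15). RRP9, the protein specific to the U3 snoRNP (chromosome 3, positions 51933430 to 51941941), had 23.6 and 25.8 CPM in baicalein 1 and 2, against 13.1 and 12.95 CPM in control 1 and 2 (log2 fold change 0.92, SE 0.07, adjusted p = 8.85e-11). UTP14A, a processome protein that in yeast activates a helicase, had 42.6 and 45.5 CPM in baicalein 1 and 2, against 22.4 and 24.2 CPM in control 1 and 2 (log2 fold change 0.91, adjusted p = 2.86e-12). UTP15, of the subcomplex that binds the nascent precursor, had 46.5 and 48.3 CPM in baicalein 1 and 2, against 29.04 and 25.7 CPM in control 1 and 2 (log2 fold change 0.79, adjusted p = 4.42e-11). RRP12, RRP9, UTP14A and UTP15 were the ones of the processome group to pass 1.5-fold, and in each the groups were far apart. The E-boxes of RRP9 and UTP14A printed above lie at -5 and -241, while no entry of UTP15 held one.

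The other processome genes changed by less. UTP6 had 83.9 and 81.6 CPM in baicalein 1 and 2, against 69.5 and 67.9 CPM in control 1 and 2 (log2 fold change 0.27, adjusted p = 1.44e-05). UTP20, a large late-joining scaffold, had 60.8 and 60.2 CPM in baicalein 1 and 2, against 52.9 and 50.9 CPM in control 1 and 2 (log2 fold change 0.22, adjusted p = 0.000322), and no longer passed with GC content and length corrected (log2 fold change 0.04, adjusted p = 0.317). UTP3 rose with 0.23, NOP14 with 0.18 and UTP4, which belongs to the same subcomplex as UTP15, with 0.16, each without overlap between the groups. UTP18 fell, with 61.7 and 60.9 CPM in baicalein 1 and 2, against 77.5 and 77.7 CPM in control 1 and 2 (log2 fold change -0.34, adjusted p = 6.59e-07). UTP6 and UTP18, which belong to the same subcomplex of the processome, thus had opposite signs. UTP11 overlapped between groups, with 37.8 and 36.7 CPM in baicalein 1 and 2, against 38.4 and 35.2 CPM in control 1 and 2. Without baicalein 2 UTP4 did not pass (adjusted p = 0.132), and without baicalein 1 NOP14 did not pass (adjusted p = 0.0533).

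The PeBoW complex of PES1, BOP1 and WDR12, which acts in maturation of the large subunit's precursor RNA, was split as well. PES1 had 83.1 and 85.0 CPM in baicalein 1 and 2, against 55.8 and 58.3 CPM in control 1 and 2 (log2 fold change 0.56, adjusted p = 3.05e-10). WDR12 had 30.2 and 31.1 CPM in baicalein 1 and 2, against 27.2 and 27.4 CPM in control 1 and 2 (log2 fold change 0.16, adjusted p = 0.0127), which turned to -0.02 when GC content and transcript length were corrected. The call of WDR12 was also lost without baicalein 1 (adjusted p = 0.0519) or baicalein 2 (0.113). BOP1 had 74.4 and 71.4 CPM in baicalein 1 and 2, against 85.1 and 93.0 CPM in control 1 and 2, a log2 fold change of -0.29 that turned to 0.12 (adjusted p = 0.00171) when GC content and transcript length were corrected. The direction of BOP1, whose transcript has 65.2% GC against a median of 49.0% over the tested genes, therefore depends on that choice.

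Among the 8 large subunit assembly factors 6 rose and 0 fell. GNL3, the GTPase nucleostemin (chromosome 3, positions 52681156 to 52694492), had 128 and 124 CPM in baicalein 1 and 2, against 77.0 and 76.6 CPM in control 1 and 2 (log2 fold change 0.71, SE 0.04, adjusted p = 6e-13). RRP15 had 55.9 and 57.7 CPM in baicalein 1 and 2, against 40.5 and 36.7 CPM in control 1 and 2 (log2 fold change 0.56). NOP53, which guides the exosome to the precursor in yeast, had 258 and 259 CPM in baicalein 1 and 2, against 175 and 193 CPM in control 1 and 2 (log2 fold change 0.49). Both groups were apart in each of these. NOP16 had 40.2 and 43.5 CPM in baicalein 1 and 2, against 30.3 and 30.6 CPM in control 1 and 2 (log2 fold change 0.46). NIP7, a pre-ribosome protein, rose with a log2 fold change of 0.31. RRP1B, with 81.9 and 81.9 CPM in baicalein 1 and 2, against 76.5 and 75.2 CPM in control 1 and 2, passed narrowly (log2 fold change 0.11, adjusted p = 0.0302) and was lost without baicalein 1 (0.188) or baicalein 2 (0.167). Its paralog RRP1 had -0.09 (interval -0.21 to 0.02), which passed as lower without control 1, with library totals (log2 fold change -0.20) and with upper quartile scaling (-0.13), and as higher with GC content and length corrected (log2 fold change 0.21). NOP2, a cytosine methyltransferase of ribosomal RNA, had a log2 fold change of 0.07 (interval -0.07 to 0.22), and passed as higher with GC content and length corrected (0.25, adjusted p = 0.000758).

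The mRNAs of the remaining nucleolar proteins, DDX21, NPM1, NCL and RRP8, differed from each other in their change. DDX21, a DEAD-box helicase that links polymerase I transcription to precursor processing (chromosome 10, positions 68956128 to 68985073), had 617 and 630 CPM in baicalein 1 and 2, against 300.01 and 298 CPM in control 1 and 2. Its fold change was 2.09, with the smallest adjusted p of the 42 genes (log2 fold change 1.06, SE 0.04, adjusted p = 2.8e-16). NPM1, the histone and ribosomal protein chaperone nucleophosmin, had 1497 and 1491 CPM in baicalein 1 and 2, against 1024 and 1021 CPM in control 1 and 2 (log2 fold change 0.55, adjusted p = 1.25e-11). The names table lists 49 NPM1 pseudogenes, of which 8 were in the count table with 1.57% of the counts of the family, so reads may be split between them. NCL, nucleolin, had 768 and 771 CPM in baicalein 1 and 2, against 729 and 745 CPM in control 1 and 2. Its interval ran from -0.02 to 0.14 log2 units, and it passed without control 2. RRP8, a methyltransferase that also takes part in silencing of ribosomal DNA, had 16.5 and 16.97 CPM in baicalein 1 and 2, against 17.1 and 18.3 CPM in control 1 and 2. Its groups did not overlap, but the gene did not pass (log2 fold change -0.08, interval -0.23 to 0.07). RRP8 passed as lower with library totals (log2 fold change -0.18, adjusted p = 0.0273), and likewise after the correction for GC content and length (-0.19, adjusted p = 0.00848).

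**Figure D2:**
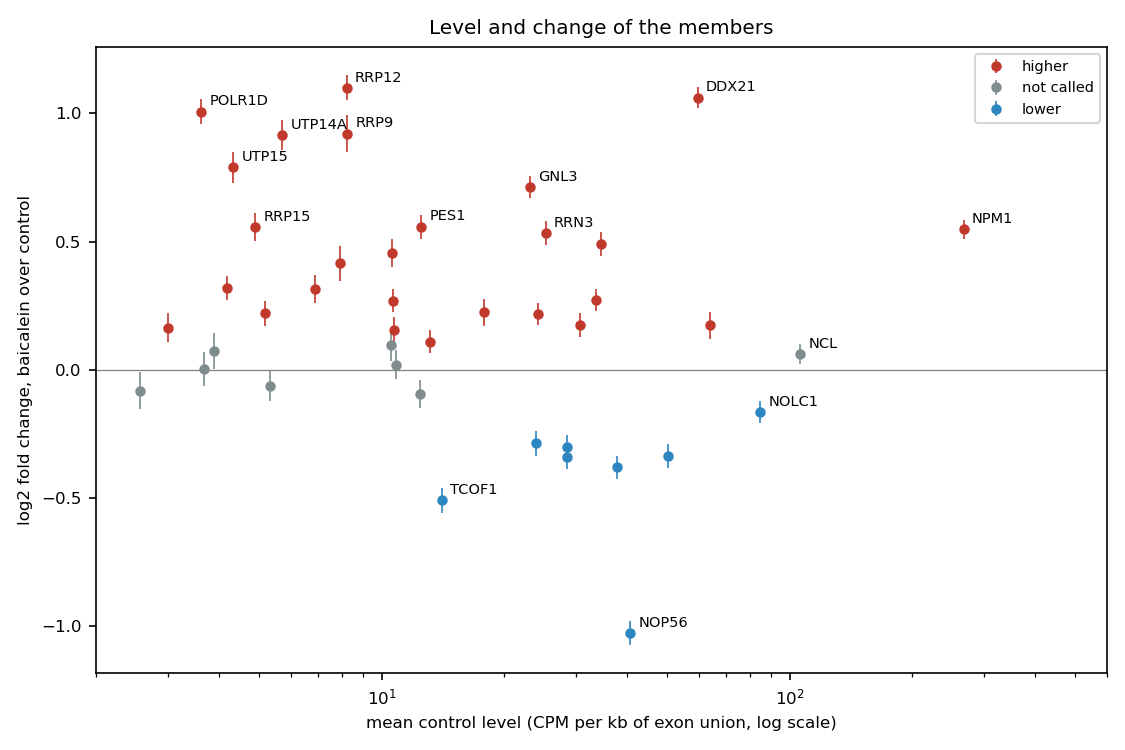
Log2 fold change (baicalein over control, with its standard error) of each of the 42 genes against its mean control level in CPM per kilobase of annotated exon, on a log axis. Called changes of at least 1.5-fold are found at low levels (POLR1D at 3.61) and at high ones (DDX21 at 59.5), and the falls lie at 14.1 and above.

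Per kilobase of annotated exon, NPM1 was the most abundant of the 42 genes, at 390 CPM per kilobase in baicalein and 267 in control cells. DDX21 stood at 124 CPM per kilobase in baicalein cells, above NCL at 111, whereas in control cells DDX21 at 59.5 lay below NCL at 106, NOLC1 at 84.5 and NOP10 at 63.8. RRP8 was the lowest, at 2.42 and 2.56 CPM per kilobase in baicalein and control cells, below WDR12 at 3.37 and 3.002. The 8 genes that fell had control levels from 14.1 (TCOF1) to 84.5 (NOLC1) CPM per kilobase. These levels divide by every annotated exon base, so genes with many rarely used exons appear lower.

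Across 131 further factors of RNA polymerase I, the snoRNPs, both subunits and the exosome, 61 were higher (46.6%) and 41 lower (31.3%). Of all tested genes 37.4% were higher and 37.6% lower. Grouped by role, these factors were called higher more often than lower for subunit assembly. The RNA polymerase I list, which includes subunits shared with RNA polymerases II and III, was called lower more often than higher. Of 44 further small subunit factors, 25 rose and 9 fell (median log2 fold change 0.23), and with library totals 21 were higher and 15 lower. UTP25 had 48.7 and 48.5 CPM in baicalein 1 and 2, against 21.9 and 22.1 CPM in control 1 and 2, and RIOK1, an atypical kinase of late maturation, had a log2 fold change of 0.95. IMP3, a U3 snoRNP protein, and NOC4L fell with -0.55 and -0.63. Of 50 further large subunit factors, 29 rose and 13 fell (median 0.20), and with library totals 23 were higher and 17 lower. NOL8 and RSL24D1 had log2 fold changes of 1.16 and 0.97, and FTSJ3, a processing factor, and HEATR3, which escorts ribosomal protein uL18, fell with -0.86 and -1.09.

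Of 13 further subunits and factors of RNA polymerase I, 9 fell and 2 rose (median -0.41). POLR2L, a small subunit common to RNA polymerases I, II and III, had 11.9 and 11.8 CPM in baicalein 1 and 2, against 33.6 and 34.5 CPM in control 1 and 2. POLR2E, POLR2F, POLR2H and POLR2K, named here after their values were seen, are common to these polymerases too. They fell as well, with log2 fold changes of -0.61, -0.43, -0.39 and -0.46. POLR1G, a subunit specific to polymerase I, fell with a log2 fold change of -1.12. The rises were in TAF1D and TAF1A, subunits of the promoter selectivity factor, with 0.87 and 0.81. TAF1C and TAF1B, also subunits of that factor and named here after their values were seen, fell with -0.65 and -0.41. Of 10 further snoRNP proteins and assembly factors 5 fell and 2 rose, and with library totals 1 rose. PIH1D1 and the helicase gene RUVBL1 fell with -0.68 and -0.60, ZNHIT6 rose with 0.64 and NUFIP1 with 0.23. The RNA exosome and trimming genes were 3 higher and 5 lower of 14, with EXOSC9 at -0.91, EXOSC2 at -0.82, EXOSC1 at 0.39 and the exonuclease gene XRN2 at 0.32. With library totals 8 exosome and trimming genes were lower.

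The ribosomal proteins that these factors assemble had log2 fold changes from -0.34 to 0.70, with a median size of 0.17 without sign. Of 79 cytosolic ribosomal protein genes, 55 were higher and 5 lower (median log2 fold change 0.17), but with library totals 30 were higher and 8 lower. RPL10A and RPL12 had log2 fold changes of 0.70 and 0.63, and RPS26 and RPL35 fell with -0.34 and -0.13. Ribosomal protein genes have many processed pseudogenes, so their single values are less certain. The lists were not tested against each other.

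**Figure D3:**
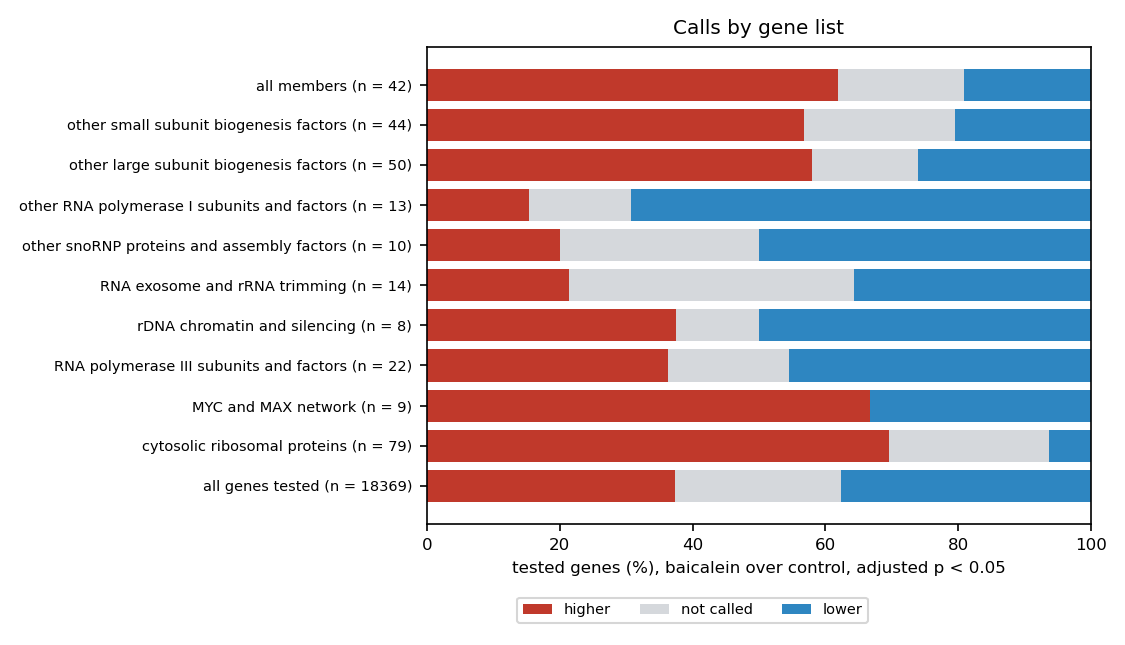
Share of tested genes called higher (red, left), not called (grey) and lower (blue, right) after baicalein, for the 42 genes, for other lists of the pathway and, at the bottom, for all 18369 genes tested. The share higher is 61.9% for the 42 genes and 37.4% for all genes, while the other polymerase I list has 9 of 13 genes lower.

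Exons of 15 of the 42 genes overlap those of a gene on the opposite strand in GENCODE release 29. Among the genes with larger changes these are RRP12, UTP14A, UTP15 (with ANKRA2), GNL3 (with GLT8D1), PES1 (with TCN2), NOP53 and NOP16. Reads from such partners cannot be told apart if counting ignored strand. DDX21, RRP9, POLR1D, NPM1 and NOP56 have no such overlap. Exons of NOP2 overlap those of AC006064.6 on the same strand, where the use of strand in counting does not separate reads.

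**Figure D4:**
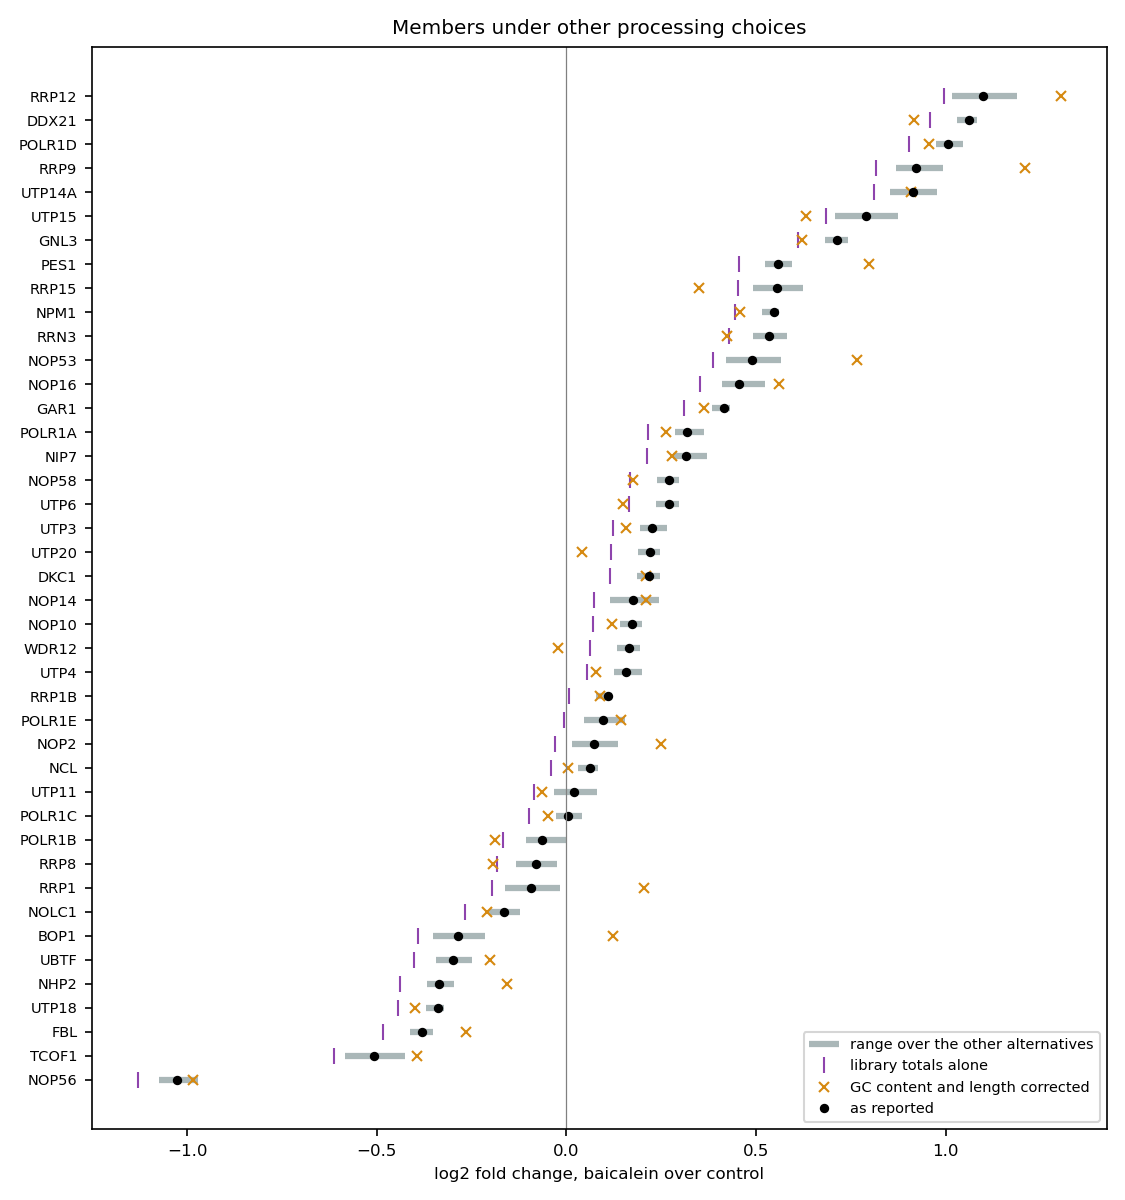
Log2 fold change of each of the 42 genes as reported (black dot), with library totals alone (purple tick), with GC content and transcript length corrected (orange cross) and the range over the other alternatives (grey bar). BOP1, RRP1, WDR12, POLR1C and UTP11 cross 0 with GC content and length corrected, and with library totals every gene lies lower.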

How the data were processed

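Poly(A) RNA-seq of 2 baicalein-treated and 2 untreated T47D samples was used. The authors deposited whole-number counts per Ensembl gene, unscaled, whose smallest row total was 10. Tools listed without roles, per the submitters' processing notes, are STAR 2.7.8a, RSEM 1.3.3, DESeq2 1.34, cutadapt 2.3 and FastQC 0.11.8, and the build is GRCh38. With annotation release and strand setting not given in the sources used here, counts of genes that share or overlap reads may be split wrongly. Symbols came from a names table (20470 of 20515 rows matched) and coordinates, exons and snoRNAs from GENCODE 29 on GRCh38.

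Tests used the quasi-likelihood method of edgeR 4.0.16 under R 4.3.3 on the counts (robust fit, TMM factors, filterByExpr with a minimum count of 10 and total of 15, no covariates), with Benjamini-Hochberg adjustment over all 18369 genes and a threshold of 0.05. CPM values are TMM-scaled. The standard error is the log2 fold change over the square root of F, and intervals are at 95%. A floor of 3 counts is 0.0529 to 0.0777 CPM, for counting error only. Replicates differed beyond sampling noise (mean chi-square per gene 2.43 in baicalein and 9.61 in control). Any gene of the 42 could be named, and from every other list the 2 largest rises and falls among called genes with a mean log2 CPM of at least 1. The members and lists were chosen with earlier results of these data known. Alternatives were other scalings and filters, DESeq2 1.42.0, limma-voom (limma 3.58.1), a 1.5-fold null, a replicate block and the omission of single libraries. After the data were seen, GC content and transcript length were also corrected, on 17867 genes. The methods were tested on simulated data.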

Additional observations from a re-analysis of the deposited data

How the results depend on the processing

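DESeq2 size factors in edgeR, no filter, a filter of 50 counts in 2 libraries and limma-voom each gave 26 of the 42 genes higher and 8 lower, and DESeq2 gave 24 and 8. The median log2 fold change of the 42 genes, 0.20 as reported, was 0.16 with upper quartile scaling, 0.093 with library totals and 0.17 with GC content and length corrected. Library totals moved the median of all genes to -0.10. Tested against a 1.5-fold change, 7 of the 42 were higher and 1 lower, and of all genes 3090 and 3581. Leaving out 1 library gave 22 to 27 higher, 7 to 9 lower and a median of 0.17 to 0.22, and of all genes 6128 to 6944 higher and 6294 to 6896 lower. In these fits the lone library of a group takes its spread from the other group.

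Replicate numbers are shared by the labels alone. Deviations of same-numbered libraries correlated at r = 0.014 over genes, so the numbers were not taken as pairs. With the number as a replicate block, 26 of the 42 genes were higher and 8 lower, as were 6894 and 6909 of all genes, and no call among the 42 changed.

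Sign changes were limited to 9 genes, of which 2 (BOP1 and WDR12) had been called. With GC content and length corrected, BOP1 had 0.12, RRP1 0.21, WDR12 -0.023, POLR1C -0.047 and UTP11 -0.065. With library totals, POLR1C had -0.10, UTP11 -0.084, NCL -0.042, NOP2 -0.030 and POLR1E -0.0070. With upper quartile scaling POLR1C had -0.028 and UTP11 -0.013, and without a filter POLR1C had -0.0012. Leaving out 1 library took POLR1C to between -0.025 and 0.041, UTP11 to between -0.034 and 0.080 and POLR1B to between -0.11 and 0.00084. The cause of these shifts was not tested. With the GC and length correction the called genes BOP1 and WDR12 changed sign, as given above. Of the other called genes, UTP4 (log2 fold change 0.08) and UTP20 (log2 fold change 0.04) no longer passed with it. With library totals NOP10, UTP4, NOP14, WDR12 and RRP1B no longer passed, nor did RRP1B with upper quartile scaling. In DESeq2 WDR12 and RRP1B did not pass. Calls were gained by POLR1B, POLR1E, NOP2, RRP8 and RRP1 with the GC and length correction, by POLR1B, RRP1 and RRP8 with library totals, and by RRP1 with upper quartile scaling. The total over the 4 libraries was lowest for RRP8, with 905 and 632 counts in baicalein 1 and 2, and 808 and 861 in control 1 and 2, and with 2 libraries a group the spread is poorly known.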

Other observations

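RNA polymerase III, which makes the small ribosomal RNA and transfer RNA and shares POLR1C and POLR1D with polymerase I, had no common direction. Of 22 subunits and factors, 8 were higher and 10 lower (median log2 fold change -0.09), but with library totals 7 were higher and 14 lower. POLR3D had 55.1 and 59.8 CPM in baicalein 1 and 2, against 22.8 and 23.6 CPM in control 1 and 2, and POLR3C had a log2 fold change of 1.06. POLR3K and POLR3GL fell with -1.20 and -1.14.

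In the MYC and MAX network 6 of 9 genes were higher and 3 lower. MXD1 and MNT, repressors that compete with MYC for MAX, had log2 fold changes of 2.19 and 1.40, and MXD1 had 26.0 and 27.6 CPM in baicalein 1 and 2, against 5.65 and 6.08 CPM in control 1 and 2. MXD3, another member of the repressor family, fell with -1.87, and MLX with -0.20. MYC and MAX, named here after their values were seen, had 0.68 and 1.03. Of 8 genes of ribosomal DNA chromatin and silencing, 3 were higher and 4 lower. SUV39H1, a histone methyltransferase that acts with RRP8 and SIRT1, had 16.04 and 15.3 CPM in baicalein 1 and 2, against 42.4 and 45.1 CPM in control 1 and 2, whereas SIRT1 had a log2 fold change of 0.78. KDM2A and KDM2B, histone demethylases, had 0.22 and -0.28.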
